A study of Mus musculus with 2 samples.

Results

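The centromere-side ends of the mouse autosomes were described by their replication timing in 46C embryonic stem cells. Mouse chromosomes are acrocentric, so the low-coordinate end of each is the centromere side. An end was defined as all table positions within 5 Mb of the lowest position of the same chromosome, on chromosomes 1 to 19, and this rule used no timing value. It took in 12768 of the 364448 autosomal positions with a value. The lowest positions lay between 3001292 (chromosome 5) and 3128132 (chromosome 16) in mm10, so the ends begin where unique sequence begins and hold no centromere.

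The data came from 1 library of early S phase and 1 library of late S phase cells of the 129P2/Ola strain, kept in serum-containing medium with leukemia inhibitory factor (LIF). Both were given 50 µM bromodeoxyuridine (BrdU), a thymidine analogue built into new DNA, for 2 h and were sorted by DNA content. DNA of 10000 cells was cut to fragments of about 100 to 600 bp, the BrdU-labelled part was captured with an antibody and amplified, and Ion Torrent sequencing followed. The deposited table holds 1 value per position for both libraries together, an early against late score smoothed over 300 kb by the authors. No source used here gives its log base or zero point. Scores above 0 are called early here and scores below 0 late, because the table's name puts early first. If the authors took the ratio the other way, all such statements turn round. Without replicate libraries no difference below can be tested, and all comparisons are descriptions of this 1 pair. The read depth is unknown. Genomic DNA carries no expression, so the cell type could not be checked against marker genes. Neighbouring positions lay a median of 5791.5 bp apart, but the end of chromosome 14 held 77 of them, against a median of 710 over the 19 ends, and that of chromosome 7 held 478, with a gap of 460 kb.

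As background, replication timing is the order in which chromosome segments are copied in S phase. Segments rich in active genes are usually copied early, and gene-poor segments at the nuclear lamina late. The mouse centromere is flanked by long satellite repeats packed as heterochromatin, followed by the first unique sequence of the long arm. The ends described here are that first unique sequence, which holds ordinary genes, clustered receptor families and recently duplicated gene blocks.

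The ends include the miR-290 to miR-295 cluster on chromosome 7, whose microRNAs are abundant in mouse embryonic stem cells. The mature 3p sequences of 4 members are shown because they mark this locus and share most of their seed (RefSeq, GRCm38.p6). The seed, bases 2 to 8, is in capitals.
mmu-miR-290a-3p: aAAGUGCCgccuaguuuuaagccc
mmu-miR-291a-3p: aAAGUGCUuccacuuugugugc
mmu-miR-294-3p: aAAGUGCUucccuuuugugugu
mmu-miR-295-3p: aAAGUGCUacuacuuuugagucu
The seed AAGUGCU was found in 3 of the 64 mature sequences listed for these ends, those of miR-291a, miR-294 and miR-295. The 9 microRNA genes of the cluster (Mir290a to Mir295) lie 0.21 Mb into the end. They took their score of 1.38 from a single position 84.5 to 86.7 kb away, at the edge of the gap. The score of the cluster is thus a value from its neighbourhood, not 9 measurements.

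Promoters of 4 genes are shown because the genes stand at opposite sides of the score and their CG dinucleotides, in capitals, differ in number. Each runs from 250 bases before to 50 after a listed start (RefSeq, GRCm38.p6).
Sbk3, chr7:4970912-4971211, minus strand: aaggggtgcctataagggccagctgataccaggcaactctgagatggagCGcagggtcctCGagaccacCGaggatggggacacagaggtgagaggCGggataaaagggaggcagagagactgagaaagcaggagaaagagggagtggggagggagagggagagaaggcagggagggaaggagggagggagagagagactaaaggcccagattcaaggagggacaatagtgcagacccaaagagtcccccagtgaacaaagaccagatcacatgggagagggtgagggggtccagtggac
Vmn1r62, chr7:5674354-5674653, plus strand: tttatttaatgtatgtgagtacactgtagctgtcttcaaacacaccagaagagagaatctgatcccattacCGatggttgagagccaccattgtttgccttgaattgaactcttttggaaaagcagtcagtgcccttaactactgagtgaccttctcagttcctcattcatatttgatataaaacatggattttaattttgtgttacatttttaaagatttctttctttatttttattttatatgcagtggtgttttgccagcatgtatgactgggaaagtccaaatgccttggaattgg
Dnmt3a, chr12:3806730-3807029, plus strand: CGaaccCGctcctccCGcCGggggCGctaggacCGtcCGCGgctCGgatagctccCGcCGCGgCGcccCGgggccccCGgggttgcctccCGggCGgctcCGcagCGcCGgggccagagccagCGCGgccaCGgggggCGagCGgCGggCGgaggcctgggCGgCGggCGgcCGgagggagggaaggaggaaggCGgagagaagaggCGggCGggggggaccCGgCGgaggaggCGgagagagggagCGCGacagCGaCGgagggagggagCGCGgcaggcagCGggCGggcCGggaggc
Ghr, chr15:3583303-3583602, minus strand: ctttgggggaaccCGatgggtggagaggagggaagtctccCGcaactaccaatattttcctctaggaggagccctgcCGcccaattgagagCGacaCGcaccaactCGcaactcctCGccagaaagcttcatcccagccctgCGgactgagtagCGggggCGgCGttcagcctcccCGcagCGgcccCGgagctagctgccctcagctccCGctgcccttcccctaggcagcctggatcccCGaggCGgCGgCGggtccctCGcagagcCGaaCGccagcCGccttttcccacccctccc
Sbk3, a kinase gene, had a score of 2.19 with 4 CG in this window, and Dnmt3a, which encodes a de novo DNA methyltransferase, had 1.35 with 46. The pheromone receptor gene Vmn1r62 had -1.27 with 1 CG, and the growth hormone receptor gene Ghr had -1.39 with 23. These scores were taken at the gene midpoints, which for a long gene such as Ghr lie far from the promoter shown. The windows of Sbk3 (gene from 4965247 to 4981041) and Dnmt3a (3801559 to 3914443) lie inside the gene. They show a listed start there, not one at the outer end of the gene. The 4 genes were picked for their scores and CG numbers, so high and low CG numbers on both sides of 0 are no result. Over all genes of the ends with a value and a listed promoter, the median was 16 CG above 0 and 5 at or below it. CG, which reads the same on both strands, occurred at least once in 94.8% of the 31396 autosomal promoters listed, with a median of 7.

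Pooled over all 19 chromosomes, the centromere-side ends had a median close to that of the rest of the autosomes. Without 3 early chromosomes it lay further below. The median score of the ends was -0.39 (quartiles -1.12 and 0.78), against -0.30 (quartiles -1.18 and 0.91) in the rest. Of their positions 39.2% lay above 0, against 44.0% in the rest and 43.8% of all autosomal positions. The difference of medians was -0.09, while the medians of the 19 ends had a standard deviation of 0.88. With 1 position per 300 kb, 115 of 318 lay above 0, or 36.2% (exact 95% binomial interval 30.9 to 41.7%), against 41.2% in the rest (40.1 to 42.3%). The intervals overlap, and since runs of one sign are often longer than 300 kb, they are too narrow. The small difference also depended on single chromosomes and on the width chosen. It was -0.20 without chromosome 19 and -0.03 without chromosome 9, and with ends of 3 Mb it turned to 0.20. Without chromosomes 7, 11 and 19, a choice made after seeing the data, it was -0.27, with 30.4% of positions above 0 in the ends, against 42.4% in the rest of the same 16 chromosomes. The medians of these 3 ends are among the highest, so leaving them out had to lower the ends. No late ends were left out to match.

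**Figure D1:**
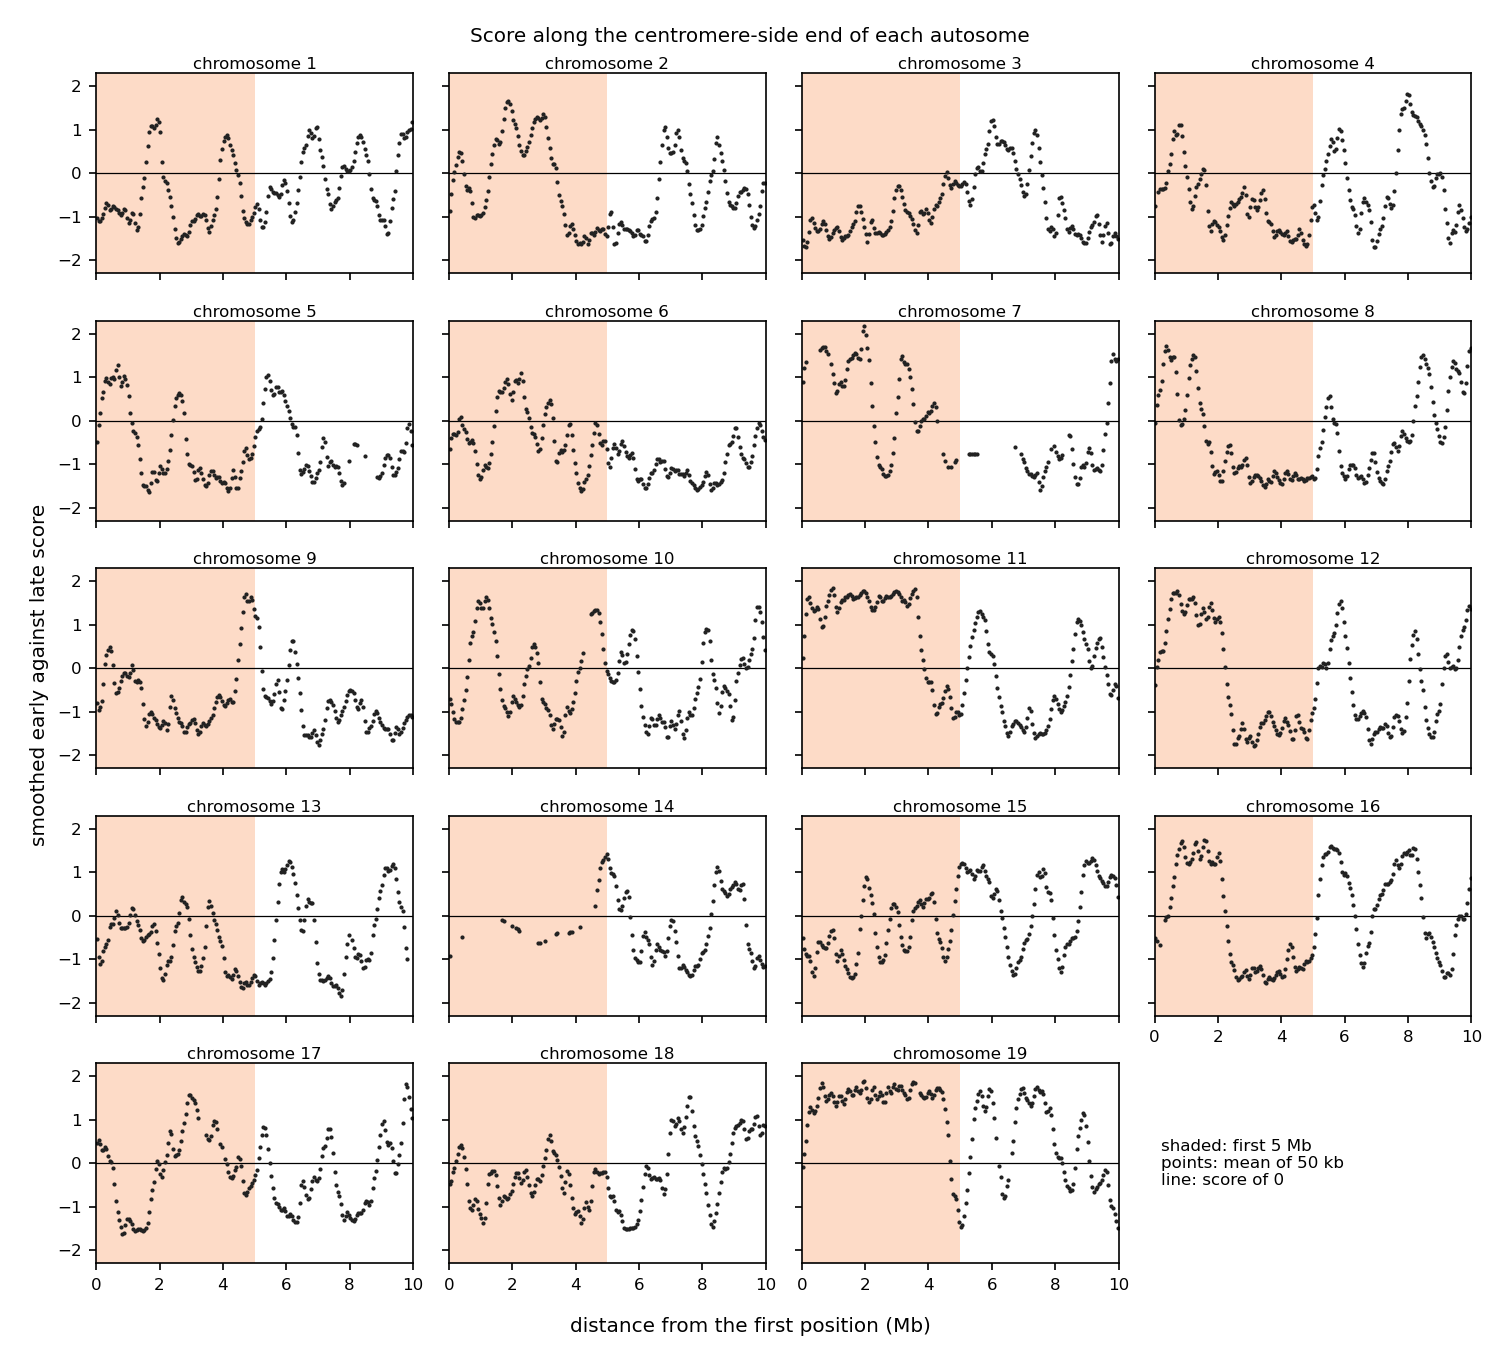
Smoothed early against late score (vertical axis) by distance from the first position in Mb (horizontal axis) for the 19 autosomes, each point the mean of 50 kb, with the first 5 Mb shaded. Chromosomes 11 and 19 stay above 1 over most of the shaded part, chromosomes 12 and 16 turn from early to late within it, and chromosome 14 has few points.

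Every end held both signs, but the ends differed widely from each other. The medians of the 19 ends ran from -1.14 on chromosome 8 to 1.58 on chromosome 19, and 4 of them, those of chromosomes 7, 11, 14 and 19, lay above 0. That of chromosome 14 rests on 55 positions at the inner edge of its end. For the rest of the same chromosomes 6 of 19 medians lay above 0. The medians of the rest had a standard deviation of 0.37, and those of the adjacent 5 Mb, a stretch of equal width, 0.53. The distal last 5 Mb had a standard deviation of 0.91, close to that of the centromere-side ends. In 18 ends the lowest value was below -1, and in 16 the highest was above 1. The end lay below the rest of its own chromosome on 11 chromosomes and above it on 8. The differences ran from -1.11 on chromosome 5 to 1.72 on chromosome 14, with a median of -0.15 and a order-statistic interval (at least 95% coverage, over chromosomes) of -0.49 to 0.25. Across the 19 chromosomes the median of the end and that of the rest had a Spearman rho of 0.37 and a Pearson r of 0.53, given as a description of points that share both libraries.

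**Figure D2:**
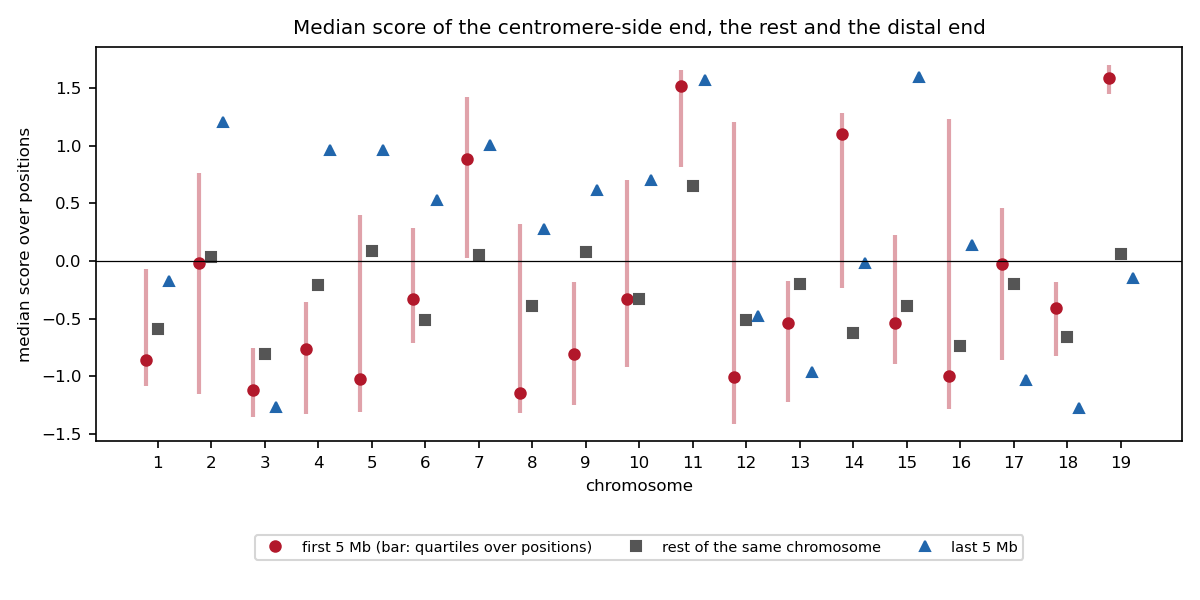
Median score over positions (vertical axis) for each autosome (horizontal axis): circles are the first 5 Mb with bars for the quartiles over positions, squares the rest of the same chromosome and triangles the last 5 Mb. The circles lie above 0 on chromosomes 7, 11, 14 and 19.

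The outermost positions mostly scored below 0, and the sign then often changed. The first position scored below 0 on 17 of 19 chromosomes, while 43.8% of all autosomal positions lay above 0. The first values had a median of -0.51, against -0.30 for all autosomal positions. They ran from -1.45 on chromosome 3 to 0.88 on chromosome 7, and the other value above 0 was 0.39 on chromosome 17. Those of chromosomes 8 (-0.23), 11 (-0.02), 13 (-0.26) and 19 (-0.17) lay above -0.30, so their sign depends on the zero point. Of the 17 late first runs 12 were shorter than 0.5 Mb, and 11 of these ended in a change to early. The other short one, on chromosome 14, ended at a gap. Most of these 12 runs are shorter than the 300 kb of the smoothing and are not domains. Those of chromosomes 11 and 14 hold 1 position each and those of chromosomes 12 and 19 hold 2. The single value on chromosome 11 was -0.02, and the sign of such a value depends on the unknown zero point. The longest late first run, on chromosome 3, measured 4.54 Mb. In steps of 500 kb, 9 of 19 chromosomes had a mean above 0 in the first step, 9 of 18 in the second and 4 of 19 in the last step of the ends. The median over chromosomes was -0.17 in the first step, 0.28 in the second and -0.84 in the tenth. Accordingly, positions 3 to 5 Mb from the start had a median of -0.83 with 26.3% above 0, and those in the first 3 Mb -0.11 with 47.8%. The stretch from 3 to 5 Mb had the lower median on 12 of 19 chromosomes. Beyond 5 Mb the median was -0.16 in the next step and 0.15 in the one after, and from 6 to 8 Mb it was again between -0.55 and -0.88. At the limit itself the values just inside ran from -1.40 to 1.42 (median -0.79) and those just outside from -1.45 to 1.40 (median -0.78). The largest step across it was 0.11, and the smoothing keeps such steps small at any limit.

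**Figure D3:**
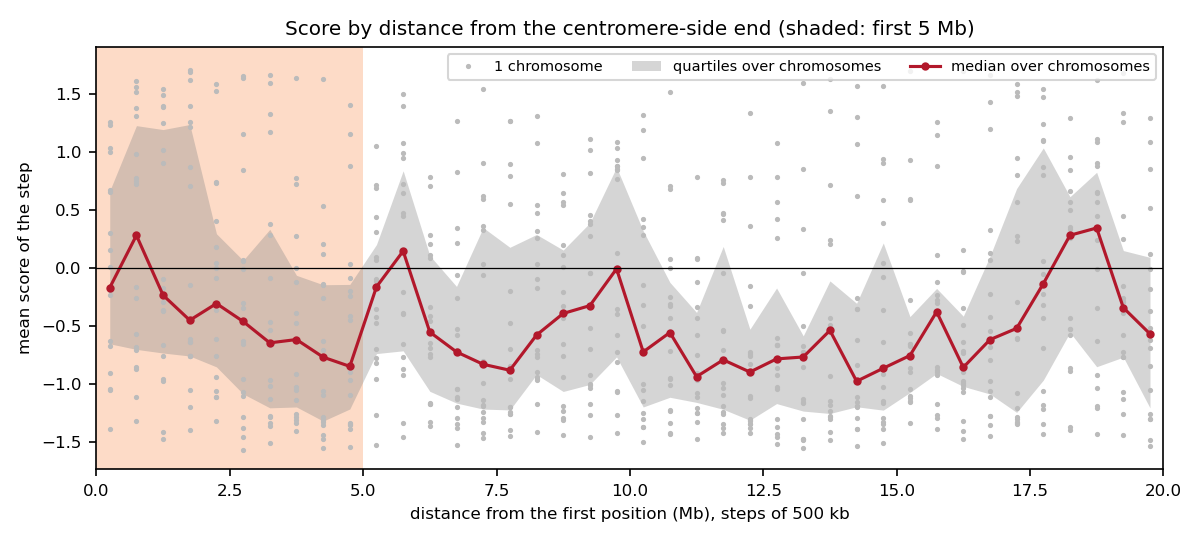
Mean score of 500 kb steps (vertical axis) by distance from the first position up to 20 Mb (horizontal axis): the line is the median over chromosomes, the band the quartiles, the grey points single chromosomes. The median goes from 0.28 in the second step to -0.84 in the last step of the shaded first 5 Mb.

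The 2 ends with the highest medians each held 1 long early block full of genes. Above 0 lay 96.4% of positions on chromosome 19 and 79.3% on chromosome 11. On chromosome 19 an early run of 4.63 Mb (3134178 to 7764754, median 1.59) held 181 protein-coding genes with a value. All quantities given for genes are scores at the gene midpoint. The highest was Brms1, known as a suppressor of metastasis, at 1.91. The block also held Kmt5b, a histone H4 lysine 20 methyltransferase, at 1.64, the Wnt co-receptor gene Lrp5 at 1.57 and Cpt1a, the gate of mitochondrial fatty acid oxidation, at 1.29. Its inner border gave way to a late stretch with the organic anion transporter gene Slc22a27 at -0.75, and the chromosome's value at the 5 Mb limit was -1.39. On chromosome 11 the early run measured 3.86 Mb (3107283 to 6965754, median 1.59) and held 79 such genes. Among them were Sec14l3, a lipid-binding protein gene, at 1.86, the stress response factor Xbp1 at 1.65 and the tumour suppressor Nf2 at 1.64. Beyond the block a late run began at 6977125 and took up 1.12 Mb of the end. It held the lowest gene of this end, Igfbp3, an insulin-like growth factor binding protein, at -0.41.

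Chromosome 7 was early for most of its end but held a deep late stretch. Its median was 0.88, with 77.8% of 478 positions above 0. The highest position of all 19 ends, 2.2 at 4979969, lies within Sbk3. The zinc finger genes beside it, Zfp579 (2.17), Zfp524 (2.09) and Zfp865 (2.03), were nearly as high. From that position to the lowest of the end, -1.27 at 5687133, the score differed by 3.47 over 0.71 Mb. The low stretch holds vomeronasal receptor genes, and Vmn1r62 (5674604 to 5676599) lies at its bottom. Along it the score passed from 1.27 at Vmn1r55 through 0.53 at Vmn1r57 and -0.94 at Vmn1r58 to -1.27 at Vmn1r62, and back to 0.34 at Vmn1r65. A second group, Vmn2r30 to Vmn2r36, lay between -1.06 and -0.05. Of the 16 Zfp genes of this end all lay above 0, from 0.27 for Zfp954 to Zfp579. The imprinted genes Zim1 (-0.24), Peg3 (-0.18) and Usp29 (0.03) lay near 0 between both vomeronasal groups. Because of the smoothing, neighbouring genes of such a cluster do not give separate measurements.

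Chromosome 14 reached its positive median of 1.10 through few positions. Between its 77 positions were 6 gaps over 300 kb, the largest of 1235 kb. The 22 positions in the first 4.61 Mb all lay below 0, from -0.91 to -0.09 with a median of -0.40. The other 55 positions lay in the last stretch before the limit, with a median of 1.25. That stretch holds the nuclease gene Dnase1l3 (1.35) and the lipid hydrolase gene Abhd6 (1.43). Taken in 500 kb steps the median of this end was -0.35, with 1 of 8 steps above 0. Of its 80 protein-coding genes 70 carry predicted names (Gm plus digits), and 37 had no position within 100 kb and so no value. The lowest other gene was Lamtor3-ps at -0.41. No source used here says how reads from near-identical copies were placed, so values in such duplicated blocks, and in the receptor clusters of chromosome 7, are uncertain. Without chromosome 14 the pooled median of the ends was -0.40.

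Chromosomes 12 and 16 had the same build, an early block followed by a late run with the midpoint of 1 protein-coding gene. They had the widest quartile ranges, 2.61 and 2.51. On chromosome 12 the early run (3088197 to 5229518, median 1.26) held 24 of the 25 protein-coding genes. They include Dnmt3a at 1.35, the pituitary hormone precursor gene Pomc at 1.26, the adenylate cyclase gene Adcy3 at 1.61 and, highest, the dystrobrevin gene Dtnb at 1.74. The late run that followed (5235526 to 8156358, median -1.35) held only the apolipoprotein gene Apob, at -1.0. It contained the lowest position of all ends, -1.81 at 6138451, 762769 bp from the nearest protein-coding gene, Klhl29. On chromosome 16 the early run (3540889 to 5369006, median 1.32) held 41 of 42 genes, among them the acetyltransferase gene Crebbp (1.22), the adenylate cyclase gene Adcy9 (1.51) and Nmral1 (1.76). The late run (5374962 to 8250094, median -1.25) held only Rbfox1, a neuronal splicing factor gene of 1.53 Mb, at -1.56. In both, the median over positions was near -1 and the median over genes far above 0 (1.31 and 1.36).

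Chromosome 8 was built alike but with a longer late part. Its early parts, up to 4623355, held 34 genes, among them the insulin receptor gene Insr (0.64) near the outer edge and the peroxisome gene Pex11g (1.72). Between them the Cd209 lectin genes dipped below 0, with Cd209b at -0.09. The late run after it began at 4628808, measured 3.80 Mb, and held 2 genes, among them the bile acid transporter gene Slc10a2 (-1.25). The median over positions was -1.14, the lowest of the 19, and 34 of 40 genes lay above 0.

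Chromosome 3 was late almost throughout. Of its 618 positions 1.29% lay above 0, the median was -1.12 and the end held 7 protein-coding genes. They include the nuclear receptor gene Hnf4g (-1.30), the homeobox and zinc finger gene Zfhx4 (-1.35), the peroxisome assembly gene Pex2 (-1.42) and, at the inner side, the lymphocyte cytokine gene Il7 (0.03). Chromosomes 13 and 18 were intermediate to late without a strong early peak. Their highest positions were 0.44 and 0.67, and the highest genes Pitrm1, a mitochondrial protease, at 0.35 and the kinesin gene Kif5b at 0.55. On chromosome 13 the aldo-keto reductase cluster lay near or below 0, from 0.20 for Akr1c18 to -0.58 for Akr1c20, and on chromosome 18 the cilium gene Armc4 was lowest at -1.38.

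The remaining chromosomes alternated between early and late runs, with 16.2% of positions above 0 on chromosome 4 at the low end and 49.6% on chromosome 2 at the high end. On chromosome 1 an early run of 0.55 Mb (4569754 to 5116212) held Mrpl15 and Tcea1, of mitochondrial translation and transcript elongation, at 1.09 and 1.08, and Rgs20, a regulator of G protein signalling, at 1.18. The endoderm factor gene Sox17 lay outside it at -0.28, and the kappa opioid receptor gene Oprk1 at -1.61 was the lowest gene of all ends. Chromosome 2 had an early run of 2.10 Mb with the cartilage matrix gene Ucma (1.67) and the peroxisomal enzyme gene Phyh (1.66), followed by a late one with the splicing regulator Celf2 (-1.17). Chromosome 4 had the oocyte kinase gene Mos (1.16), the growth regulator Plag1 (1.07) and the kinase gene Lyn (0.92) in 1 run of 0.57 Mb, with Tox, a T cell factor, at -1.44 in the long late run that followed. On chromosome 5 the cell cycle kinase gene Cdk6 (0.89) and Tmbim7 (1.28) were early, and the related Cdk14 (-1.15) and Zfp804b (-1.41) late. On chromosome 10 Akap12, a kinase anchoring protein, had 1.64, against -0.81 for the oestrogen receptor gene Esr1 and -0.99 for the mu opioid receptor gene Oprm1 and -1.24 for the phosphatase inhibitor gene Ppp1r14c. On chromosome 15 Card6 had 0.91 and Ghr (3317755 to 3583352) -1.39, and on chromosome 17 the phosphatase gene Synj2 had 1.60 and the NADPH oxidase gene Nox3 -0.80. On chromosome 6 the run from 4500988 to 5593399 held the imprinted genes Peg10 (0.70) and Sgce (0.65) and the paraoxonase gene Pon2 (0.99), while Gng11, of a G protein subunit, had -1.33.

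Chromosome 9 crossed from late to early inside a gene cluster, chosen here after its values were seen. Its 10 matrix metalloproteinase genes, which encode enzymes that cut extracellular matrix, formed a slope. In order of position the scores were, among others, -0.71 for Mmp13, -0.81 for Mmp12, -0.40 for Mmp3, -0.27 for Mmp1a, 0.43 for Mmp8, 1.11 for Mmp20 and 1.44 for Mmp7. The slope ended at Tmem123 (1.73), beside the apoptosis inhibitor gene Birc2 (1.58) and the Hippo pathway effector gene Yap1 (1.61). The late side held the inflammatory caspase gene Casp1 (-1.41) and, lowest, Ddi1 (-1.51).

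Gene number and score went together in the ends. The ends held 867 protein-coding genes, of which 823 had a value. Of these 621 (75.5%, exact 95% binomial interval over genes 72.4 to 78.4%) lay above 0, against 74.3% in the rest of the autosomes and 74.4% of all autosomal protein-coding genes. Their median was 1.27, against 1.04 in the rest. Chromosomes 7, 11 and 19 alone supplied 387 genes (44.6%). Without these 3 chromosomes 59.7% of genes in the ends lay above 0, with a median of 0.36. Of the 381 genes so left out 357 lay above 0, so the share had to fall. Without chromosome 14 as well, it was 64.4%, with a median of 0.48. The share of genes in the rest of the same chromosomes was not computed, and 74.3% is not its counterpart. In 14 of the 19 ends there were fewer genes per Mb than in the rest of the same chromosome. The range ran from 1.40 per Mb on chromosome 3 to 36.6 on chromosome 19. Across the ends, genes per Mb and median score had a Spearman rho of 0.59 and a Pearson r of 0.83, and over 17 ends, without the 2 farthest in gene number, 0.43 and 0.83. Both sets keep chromosome 14, at 16 genes per Mb with a median of 1.10 that rests on few positions. In 500 kb steps the median of that end was -0.35, so its place in these correlations is uncertain. These are descriptions over ends that share both libraries, and genes of a cluster share smoothed values.

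The score of windows went up with their gene number in the ends, as it did in the rest. In 1 Mb windows with at least 20 positions, the mean score lay above 0 in 31 of 91 windows of the ends, 942 of 2296 in the rest and 40.8% of all. In the ends this limit left out only windows of chromosome 14, all but its last (18 genes, mean 1.13). The windows left out hold most of that end's 80 protein-coding genes, and their positions all lay below 0. The rise with gene number thus does not cover them. With 1 to 4 genes, 0 of 30 windows of the ends lay above 0, against 77 of 762 windows (10.1%) in the rest. A rough limit for 0 of 30, 3 divided by the number of windows, is 10%. It is no exact interval and does not set the ends apart from the rest. Neighbouring windows are also not independent. With 5 to 9 genes it was 8 of 25 windows (32%), against 279 of 562 (49.6%), and this difference was not tested. The medians of these classes were -0.83 and -0.27 in the ends, against -0.94 and -0.01 in the rest. In windows with 10 to 19 genes 12 of 14 lay above 0, against 375 of 460, and with 20 or more 11 of 12, against 211 of 253. The 10 windows without protein-coding genes all lay below 0 (median -1.33), as did all 259 in the rest (median -1.26).

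**Figure D4:**
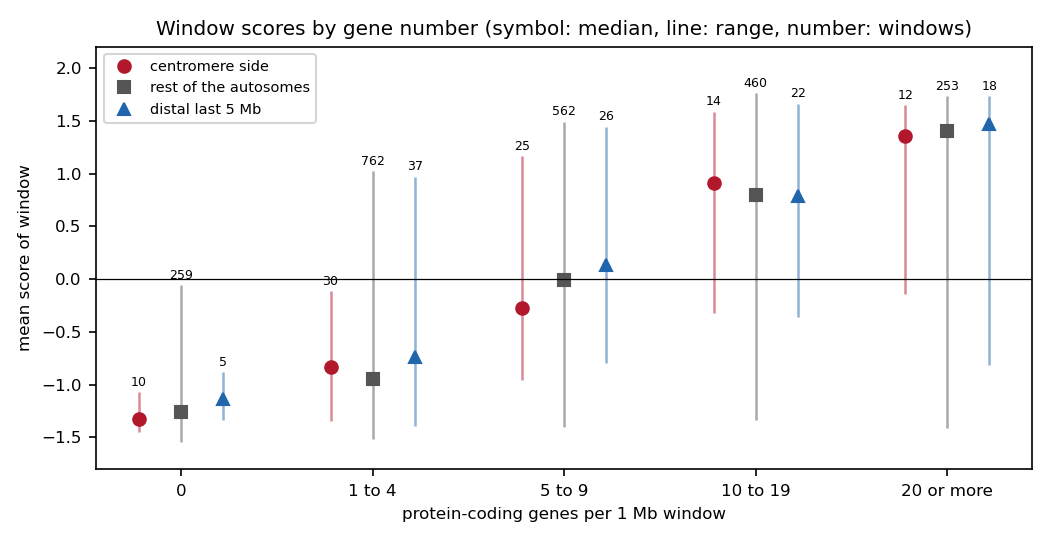
Mean score of 1 Mb windows (vertical axis) by number of protein-coding genes (horizontal axis) for the centromere side, the rest of the autosomes and the distal last 5 Mb, the last also counted in the rest. Symbols are medians, lines the range and numbers the windows, which hold at least 20 positions each. Distal windows are all those that reach into the last 5 Mb, so some begin before it. Medians go up with gene number in all 3, from -1.33 to 1.36 on the centromere side.

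Pooled over positions, the centromere-side ends were later than the distal ends, but the chromosomes disagreed. The pooled median was -0.39 on the centromere side, against 0.25 in the distal last 5 Mb, a difference of -0.64. Between means over positions the difference was -0.38, and with ends of 3 Mb the difference of medians was -0.27. Above 0 lay 39.2% of centromere-side positions, against 56.2% of distal ones. Over 1 position per 300 kb it was 36.2% (interval 30.9 to 41.7%), against 54.3% (48.8 to 59.7%), and these intervals, which are too narrow as said, do not overlap. The centromere-side end was the later of both on 13 of 19 chromosomes, most of all on chromosome 15 (-0.54 against 1.59), and the earlier on 6, most of all on chromosome 19 (1.58 against -0.15). The median difference over chromosomes was -0.69, with a order-statistic interval (at least 95% coverage, over the 19 chromosomes) of -1.42 to 0.43, which includes 0. Distal windows also held more genes, with a mean per window of 8.85 on the centromere side, against 11.1 in the distal windows. The distal windows are all those that reach into the last 5 Mb, so some begin before it. The part of gene number in the difference of scores was not tested. The adjacent second 5 Mb had a similar pooled median, -0.39 in the ends, against -0.42 in it, but differed chromosome by chromosome. The end was the later on 10 of 19 chromosomes. On chromosome 11 its median was higher by 1.97 and on chromosome 7 by 1.95, and on chromosome 16 it was lower, with a difference of -1.47. Across the 19 chromosomes the medians of both stretches had a Spearman rho of -0.10 and a Pearson r of 0.08, a description of points that share both libraries. Scores above 1 made up 21.4% of positions in the ends, against 12.3% in the second 5 Mb. Over all autosomal positions it was 23%, near the share in the ends, and in the distal ends 31.3%.

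The gene lists that follow were made by hand and hold few genes, so their counts stand beside the 74.4% of all autosomal protein-coding genes above 0 and are no result about a group. LIF keeps mouse embryonic stem cells undifferentiated, and the ends hold both the ligand and its specific receptor chain on different chromosomes. Lif (1.33) and its neighbour Osm (1.29), which encodes the related oncostatin M, lie in the early block of chromosome 11. Their receptor genes on chromosome 15, Lifr at 0.51 and Osmr at 0.27, lie in a run of 0.71 Mb with low positive scores that also holds the TOR complex gene Rictor (0.33). The other cytokine gene, Il7, was named above. The list of LIF and cytokine signalling as a whole had 10 of 11 genes above 0, with a median of 0.51, but it also holds Lyn, Nf2, Xbp1, Fyb (0.12), Rictor and Dab2 (-0.81), which encode neither cytokines nor their receptors.

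Among genes of chromatin and DNA methylation, Dnmt3a, Crebbp and Kmt5b were named above, and the histone chaperone gene Ubn1 had 1.21. Arid1b, a subunit of BAF remodelling complexes, had -0.18, and Epc1, of the NuA4 acetyltransferase complex, -0.05. The list as a whole had 12 of 15 genes above 0, with a median of 1.22, a share near that of all protein-coding genes, and it mixes roles. Its extremes were the RNA-binding protein gene Ewsr1 (1.77) and the autophagy gene Rb1cc1 (-0.94), and Upf2 (1.25), Sf3a1 (1.45), Tcea1, Ighmbp2 (0.91), Ppp1ca (1.34) and Rad9a (1.35) also act outside chromatin and DNA methylation. Of developmental transcription factor genes 4 of 12 lay above 0, with a median of -0.18, against 74.4% of all protein-coding genes above 0. The neural factor gene St18 had -1.08. Above 0 were Glis2 (1.38), Plag1, Crem (0.29) and Klf6 (0.24). The limb and forebrain genes Dlx6 and Dlx5 lay just below it (-0.04 and -0.08), and Zeb1, a factor of epithelial to mesenchymal transition, had -0.69. Among hormone, receptor and metabolism genes 16 of 24 lay above 0, with a median of 0.83, a share near that of all protein-coding genes. Besides those named, the preproenkephalin gene Penk had -0.27, Cyp7a1 of bile acid synthesis -0.82, Camk2b 1.74, the prostaglandin receptor gene Ptger4 0.48 and the neurotrophic factor gene Gdnf -0.12.

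Of imprinted genes 7 of 11 lay above 0 (median 0.48), again near the share of all protein-coding genes. All lie on chromosomes 6 and 7, so they make up 2 neighbourhoods. Besides those named, the calcitonin receptor gene Calcr had -0.49 and the protease inhibitor gene Tfpi2 -1.25. In a list of long genes 6 of 16 lay above 0, against 74.4% of all protein-coding genes, with a median of -0.30. It ran from Rbfox1 to Rgs20, with the glutamate receptor gene Gria4 at -1.30 and the nuclear envelope gene Syne1 at -0.83. The list was not made by a length limit and leaves out longer genes of the ends than some it holds, among them Zfp804b, Esr1, St18 and Tox, which all lay below 0. Vomeronasal receptor genes lay above 0 in 5 of 23 (median -0.78), against 50 of 291 over the autosomes (median -0.78). Zfp genes did in 21 of 23 (median 1.33), against 342 of 381 over the autosomes (median 1.18). Both counts are near those of the whole family. All 10 olfactory receptor genes lay above 0, with a median of 0.74, against 200 of 1103 on the autosomes as a whole (median -0.81). They lie on 2 chromosomes, 8 genes on chromosome 7 and 2 on chromosome 16, so they are not 10 independent cases. Genes with predicted names lay above 0 in 21 of the 57 with a value (median -0.26), out of 91 in the ends, against 464 of 846 over the autosomes (median 0.28). Of these 57 genes 36 lie on chromosome 14, where 4 were above 0. The lowest olfactory receptor gene was Olfr1350 at 0.05 and the highest Olfr15 at 1.35.

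**Figure D5:**
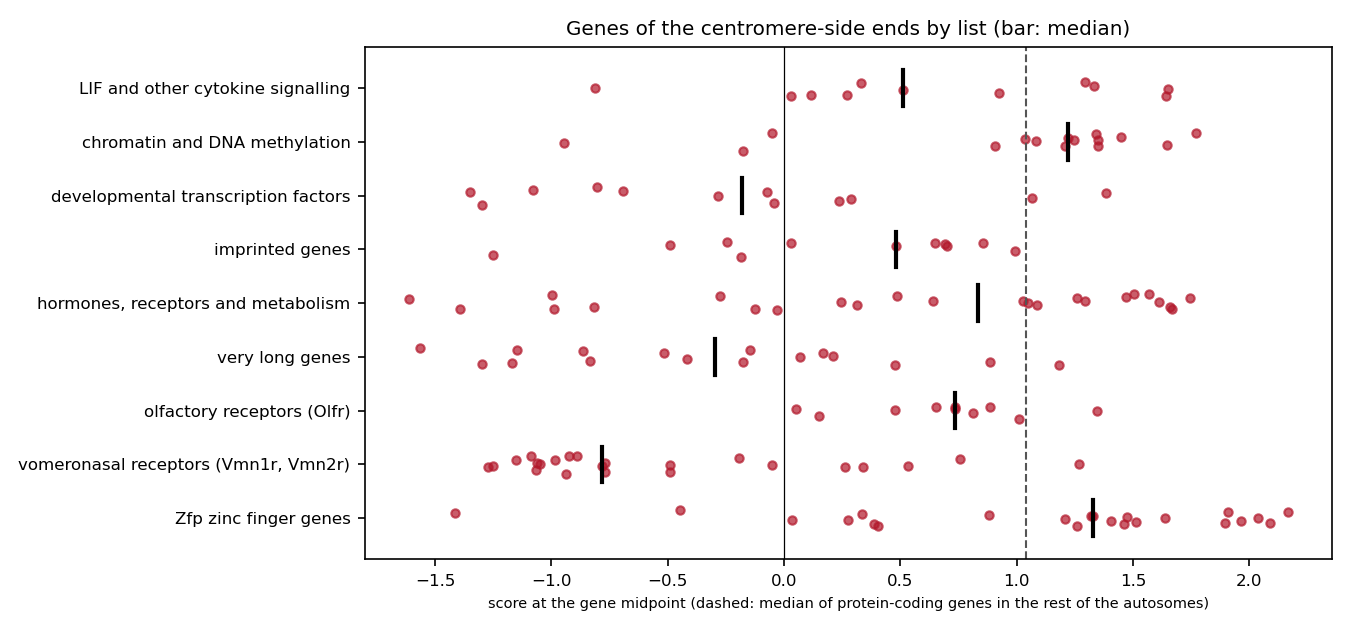
Score at the gene midpoint (horizontal axis) for the genes of the centromere-side ends in each list or family (vertical axis), with a bar for the list median and a dashed line at 1.04, the median of protein-coding genes in the rest of the autosomes. Vomeronasal receptor genes, long genes and developmental factors have medians below 0, and the lists mix roles as said in the text.

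Promoters of early and late genes of the ends differed in base composition much as elsewhere. A listed promoter was found for 654 of the 823 genes with a value. The 502 with scores above 0 had a median of 58.7% GC and 16 CG per promoter, and the 152 at or below 0 had 49.3% and 5. In the rest of the autosomes the medians were 59.0% and 18 above 0, and 46.7% and 3 at or below it. Among other gene types, 33 of 37 microRNA genes of the ends lay above 0 (89.2%, against 76.1% in the rest), but 29 of the 37 lie on chromosomes 7, 11 and 19. Long noncoding RNA genes lay above 0 in 217 of 413 (52.5%), against 63.1% in the rest. The score differed between neighbouring positions at most 7 kb apart by a median of 0.0137 in the ends, against 0.0132 in the rest.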

How the data were processed

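The submitters' processing notes name Bowtie2 and the mm10 build. The authors joined both libraries in 1 deposited column, a score smoothed over 300 kb, so neighbouring positions are dependent. No source used here gives the counting, the handling of reads with several matches, the scaling or the smoothing method. Whole genome amplification can make coverage uneven, and with no replicate its share cannot be told.

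Positions without a value (4) were left out. Genes came from RefSeq's table for GRCm38.p6, the same chromosome coordinates as mm10. Entries of scaffolds under chromosome names were left out. A gene belonged to an end by its midpoint and took the value of the nearest position within 100 kb. Runs were stretches of 1 sign ended by gaps over 300 kb. Windows of 1 Mb were counted from the first position. Python 3.11.15, pandas 2.3.3 and scipy 1.17.1 were used, and run finding and gene values were checked on simulated data.

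With 1 library per fraction no test was made. Intervals of shares are exact binomial intervals and cover sampling of positions or genes only. The members, the 6 gene lists and 4 families were chosen with earlier results of these data known. Named genes were the highest and lowest of each end (without symbols of Gm plus digits or ending in Rik), the list members, and those nearest the extreme positions. Other named genes were chosen after their values were seen.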

Additional observations from a re-analysis of the deposited data

How the results depend on the processing

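No paired analysis was possible because there is 1 library per fraction. With ends of 3 Mb the difference from the rest was 0.20, against -0.09 with 5 Mb, positions above 0 made up 47.8%, 7 chromosomes lay below their rest, 7 end medians lay above 0, and 80.1% of genes did. With ends of 10 Mb 71.8% of genes lay above 0. Counted from the median of all autosomal positions (-0.30) instead of 0, 47.4% of positions and 82.9% of genes lay above it. Without chromosomes 7, 11 and 19, chosen after seeing the data, 30.4% of positions, 59.7% of genes and 1 end median lay above 0, and without 14 as well 30.1%, 64.4% and 0. Leaving out 1 chromosome at a time, the median ran from -0.51 to -0.33, the share of positions from 35.5 to 41.2%, the difference from the rest from -0.20 to -0.03, and that from the distal ends from -0.79 to -0.53. The ends above 0 numbered 3 to 4, those below their rest 10 to 11, and genes above 0 made up 68.8% (without chromosome 19) to 78.7% (without 14). The difference from the distal ends kept its sign in all settings run, at -0.27 with ends of 3 Mb. Over all results and alternatives, those just given included, 176 values stayed within their intervals, or within 1.5 times for counts of chromosomes. Beside them 15 moved outside and 1 changed its sign. Many of the 176 could not have moved. Leaving out 1 chromosome changes a count of chromosomes by at most 1, and another zero point leaves differences between regions as they are. The tally is thus no measure of stability. The alternatives included gene starts in place of midpoints (added after seeing the data). The interval for the difference from the rest, -0.49 to 0.25, is wide, so staying within it says little. The cause of these shifts was not tested. The sign of a score near 0 depends on the unknown zero point, the read depth is unknown, and error between experiments cannot be given.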
